A study of Mus musculus with 6 samples.

Results

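Proteasome genes were followed in the hearts of 6 mice aged 11 months, of which 3 lacked Ybx1 in cardiomyocytes (Ybx1cmKO, called knockouts) and 3 were littermate controls. The members were taken by name and class, as the protein-coding rows whose symbol starts with Psm, a letter from a to g and a digit. This gave 51 of the 78409 rows of the deposited table. Of these, 49 encode subunits, activators, inhibitors or assembly factors of the proteasome. Psmc3ip and Psme3ip1 match the name alone, the first encoding a partner of meiotic recombination proteins and the second a partner of PSME3. RNA came from heart tissue, not from sorted cells, so fewer cells of a type and less RNA per cell cannot be told apart. The sources used here name neither the promoter that drove Cre nor the alleles of the littermates.

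The 26S proteasome is the main protease of the cytosol and nucleus and degrades proteins tagged with ubiquitin. Its 20S core is a barrel of stacked rings, with alpha subunits (Psma) outside and beta subunits (Psmb) inside, and the proteolytic sites are in the beta subunits encoded by Psmb5, Psmb6 and Psmb7. In immune cells, and in other cells after interferon, newly made cores take up the immunoproteasome subunits encoded by Psmb8, Psmb9 and Psmb10 in place of those of Psmb5, Psmb6 and Psmb7 respectively, which changes the peptides released for antigen presentation. The 19S cap (Psmc ATPases and Psmd non-ATPase subunits) recognises, unfolds and feeds in ubiquitinated substrates, and other activators (Psme) open the core without ATP. In the heart this system removes damaged and misfolded proteins, those of the contractile apparatus among them.

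Library totals lay between 12270796 and 15141525 counts. Levels are given as CPM, a gene's share of the counts of its library after scaling by TMM factors, with hearts 1, 2 and 3 of each group in that order. Ybx1 stood at 849, 810 and 895 CPM in the controls and at 203, 171 and 110 CPM in the knockouts, so the targeted gene matched the genotype label of all 6 libraries. The 11 cardiomyocyte markers, Myh6 and Tnnt2 among them, summed to between 30598 and 36296 CPM in the controls and between 25283 and 33788 CPM in the knockouts. Of these 11, 5 had a log2 fold change (knockout over control) above 0. Their median was -0.21, and -0.07 without knockout library 1 and -0.06 without TMM factors. All 3 knockouts lay below the controls in 3 of the 11, beside 5.82% of all genes. Knockout library 3 stood apart in composition: mitochondrial rRNA made up 10.7% of its counts and 20.5% to 26.3% of those of the other libraries, and Malat1, a nuclear RNA, stood at 668 deposited CPM against 3317 to 7923. Control library 2 lay at the other end on both measures (26.3% and 7923 CPM).

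Constitutive and immunoproteasome genes are known to be controlled by different factors, and their promoters were compared first. RefSeq promoter windows of GRCm38.p6, from 250 bases before to 50 bases after a start site, were matched to 43 of the 51 members (Psma8, Psmb1, Psmb2, Psmb7, Psmc3, Psmd3, Psmd7 and Psmg2 had no entry). Each motif was searched on both strands. The core of the antioxidant response element, TGACNNNGC, is read by NRF1 and NRF2 (encoded by Nfe2l1 and Nfe2l2), of which NRF1 is known to induce proteasome genes as a group. It was present in 4 of 27 windows of constitutive 20S and 19S subunits (14.8%), those of Psmb5, Psmb6, Psmc6 and Psmd12, and in 12.4% of all 32851 promoter windows. It was also present before Psmd9 and Psme4. The ETS core CCGGAAG was in 11 of the 27 constitutive windows (40.7%), in 8.86% of all windows and in 11.6% of those of protein-coding genes. None of the 6 windows of Psmb8, Psmb9, Psmb10, Psme1 and Psme2 held either motif. At the shares over all windows, 6 windows are too few for this to set them apart from other genes. The gamma-activated site core TTCNNNGAA was in the windows of Psmb8 and of Psmd2, a constitutive 19S gene, and in 8.30% of all windows. The interferon-stimulated response element core was in the windows of Psme1, Psmb3 and Psmd4 among these and in 3.44% of all windows. CCAAT was in 10 of the 27 constitutive windows (37.0%) and in 37.4% of all windows. A match describes the letters in the window and not a bound site.

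The stretches below show where the antioxidant response core lay before 2 catalytic subunits, an ATPase and an assembly chaperone. Capitals mark matches to the antioxidant response, ETS and interferon-stimulated response cores, which did not overlap. The sequences are the parts of the windows outside all exons of GENCODE M21, 5′ to 3′ on the strand of the gene, at chr14:54618023-54618245 on the minus strand (Psmb5), chr11:70525107-70525356 on the plus strand (Psmb6), chr14:45329574-45329787 on the plus strand (Psmc6) and chr5:123227940-123228189 on the plus strand (Psmd9), all in GRCm38.p6.
Psmb5: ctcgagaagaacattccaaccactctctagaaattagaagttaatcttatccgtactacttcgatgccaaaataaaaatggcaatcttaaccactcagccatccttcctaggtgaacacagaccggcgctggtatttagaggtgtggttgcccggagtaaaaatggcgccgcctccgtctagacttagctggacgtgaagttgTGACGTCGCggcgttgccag
Psmb6: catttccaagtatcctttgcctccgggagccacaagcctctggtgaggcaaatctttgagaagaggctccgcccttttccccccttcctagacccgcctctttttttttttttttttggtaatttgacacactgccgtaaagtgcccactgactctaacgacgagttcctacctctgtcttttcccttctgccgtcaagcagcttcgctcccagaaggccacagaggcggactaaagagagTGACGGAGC
Psmc6: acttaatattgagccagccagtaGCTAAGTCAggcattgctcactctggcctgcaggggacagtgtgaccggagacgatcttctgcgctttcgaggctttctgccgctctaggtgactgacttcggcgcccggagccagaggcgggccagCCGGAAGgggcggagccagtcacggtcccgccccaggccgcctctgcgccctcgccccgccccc
Psmd9: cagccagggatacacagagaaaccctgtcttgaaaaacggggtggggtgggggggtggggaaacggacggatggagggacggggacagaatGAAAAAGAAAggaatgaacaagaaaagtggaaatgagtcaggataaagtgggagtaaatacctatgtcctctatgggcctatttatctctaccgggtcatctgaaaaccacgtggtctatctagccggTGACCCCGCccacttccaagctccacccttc
In Psmb6 the core ended at the base before the RefSeq start site, in Psmb5 it started 47 bases before that site and in Psmd9 31 bases before it. In Psmc6 it lay on the other strand and started 227 bases before the site, with an ETS core starting 100 bases before it.

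In the control hearts, Psmb8 and Psmb9 were expressed below every constitutive 20S and 19S gene. Levels between genes were compared as mean control CPM per kilobase of exon (lengths from GENCODE M21). These lengths join the exons of all protein-coding transcripts of a gene (2846 bases for Psma3 and 1239 for Psma5). The order of genes depends on them: in mean control CPM, Psma3 (44.5) lay above Psma5 (21.9). The 14 constitutive 20S genes (Psma1 to Psma7 and Psmb1 to Psmb7) ranged from 15.7 CPM per kilobase for Psma3 to 160 for Psmb3, with a median of 42.8. The 17 genes of the 19S cap ranged from 10.3 for Psmd13 to 89.2 for Psmd7, with a median of 19.9. The immunoproteasome genes were at 4.94 (Psmb8), 5.06 (Psmb9) and 16.7 CPM per kilobase (Psmb10), and the constitutive subunits they replace were at 34.6 (Psmb5), 58.9 (Psmb6) and 25.4 (Psmb7). Among activators, Psme1 and Psme2, the alpha and beta subunits of PA28, were at 38.5 and 29.7 CPM per kilobase, and Psme3 (PA28 gamma, nuclear) and Psme4 (PA200, nuclear) at 8.75 and 14.7. The assembly chaperones of the cap, Psmd5, Psmd9 and Psmd10, and the inhibitor Psmf1 had the lowest levels of the tested genes with a proteasome role, at 1.05 to 2.86 CPM per kilobase. The tissue-restricted forms were at or near 0: Psmb11, the catalytic subunit of the thymus, had 0 counts in all 6 libraries, and Psma8, the alpha subunit of the testis, had 4, 1 and 1 counts in the controls and 3, 7 and 7 in the knockouts.

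No proteasome gene passed the test between knockouts and controls. Of the 51 members, 48 had a CPM of at least 1 in at least 3 libraries and were tested, and Psma8, Psmb11 and Psmc3ip (12, 3 and 14 counts in the controls and 6, 8 and 26 in the knockouts) were not. None of the 48 had a Benjamini-Hochberg adjusted p below 0.05 in edgeR's quasi-likelihood test over all 13717 genes (adjusted p 0.694 to 0.982), and over all genes 0% passed. The deleted gene Ybx1 did not pass this test either (log2 fold change -2.40, edgeR adjusted p = 0.148). A member that was not called is therefore not shown to be unchanged. DESeq2 called none of the 48 and 0.109% of all genes. At unadjusted p below 0.05 in edgeR, 4 members were higher (Psmb7, Psmd9, Psme4 and Psma2) and 0 lower, beside 2.69% of all genes higher and 2.45% lower. DESeq2 also gave 4 members higher at that level. For 37 of the 48 the 95% confidence interval of the fold change lay within 2-fold in both directions, and for the other 11 it reached past 2-fold.

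Most members had a higher mean in the knockouts, by an amount that moved with a library of each group. Of the 48 tested members, 36 had a log2 fold change above 0 (75.0%), beside 51.1% of all tested genes, and their median was 0.17, beside 0.01 over all genes and 0.04 over all protein-coding genes. Knockout heart 3 had the highest level of the 6 in 26 of the 48 members (54.2%), beside 33.9% of all genes, and control heart 2 the lowest in 22 (45.8%), beside 25.2%. Without knockout library 3 the members above 0 numbered 32 of 48, beside 48.5% of all genes, with a median of 0.07 and 0 members at unadjusted p below 0.05 in edgeR. Of all 13717 genes, 265 were higher and 264 lower at that level. Without control library 2 the members above 0 numbered 28, with a median of 0.11. With both left out, 23 of 48 lay above 0, beside 52.0% of all genes, and the median was -0.01. The part of RNA composition in this was not tested. With library totals in place of TMM factors, 44 of 48 members (91.7%) lay above 0, with a median of 0.32, but the median of all genes was then 0.17.

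**Figure D1:**
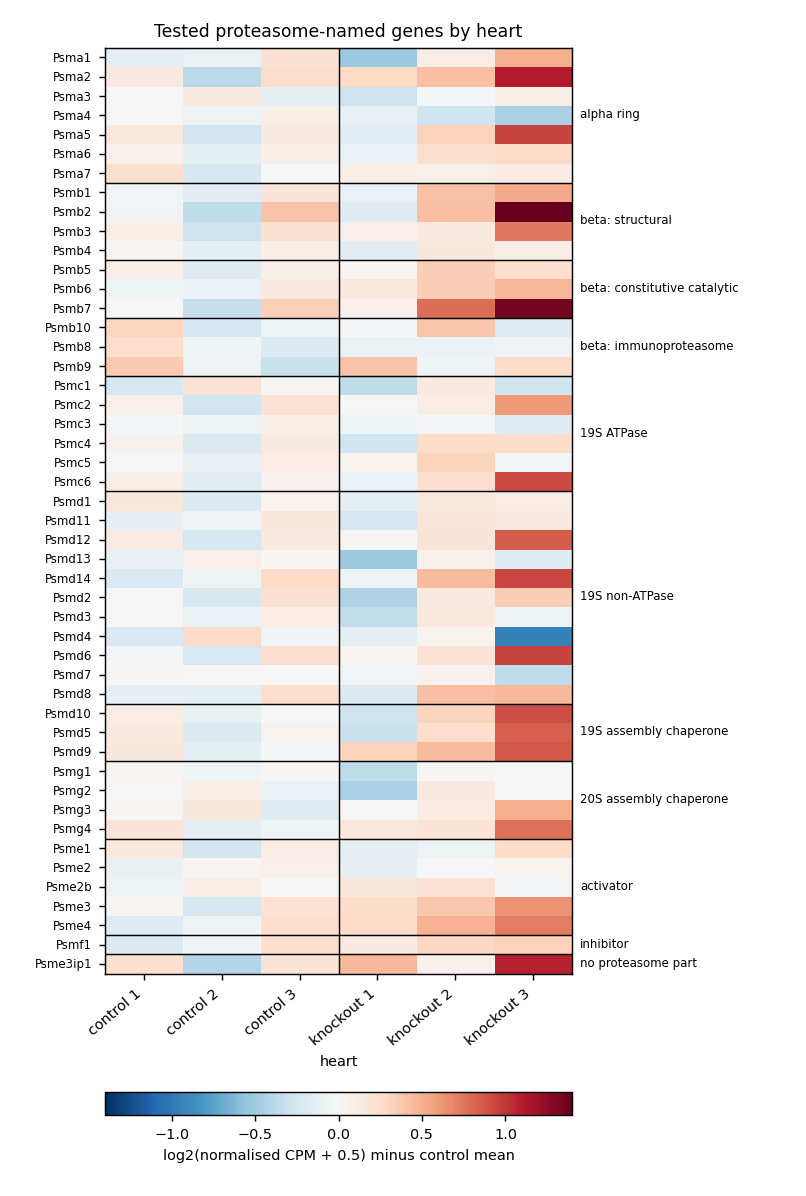
Levels of the 48 tested genes (rows, grouped by role) in each heart (columns), as log2(normalised CPM + 0.5) minus the mean of the 3 control hearts, where red is higher and blue lower. Knockout heart 3 holds the highest value in 26 rows and control heart 2 the lowest in 22, and for none of the 3 immunoproteasome genes is knockout heart 3 the highest.

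**Figure D2:**
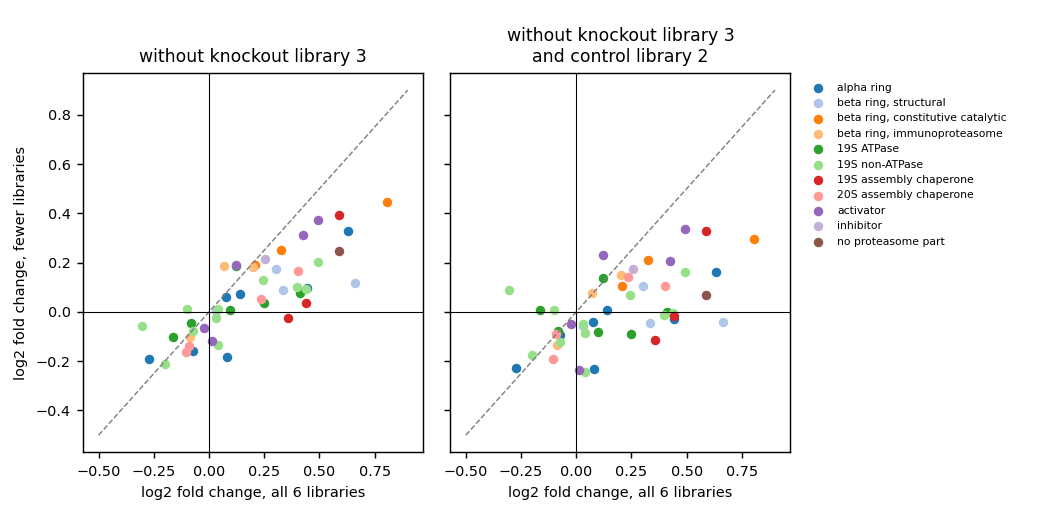
The log2 fold change (knockout over control) of each tested gene with all 6 libraries (horizontal) against the same without knockout library 3 (left) and also without control library 2 (right), with a dashed line of equality. On the left 32 of 48 genes lie above 0 on the vertical axis and on the right 23 of 48.

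Among the constitutive catalytic subunits, Psmb7 had the highest fold change of the family. Psmb7, which carries the trypsin-like site, stood at 28.7, 23.0 and 36.5 CPM in the controls and 30.4, 49.9 and 73.9 CPM in the knockouts. Knockout hearts 2 and 3 lay above all controls and knockout heart 1 lay among them. This gave a log2 fold change of 0.80 with a standard error of 0.32 and a 95% interval of 0.07 to 1.54 (edgeR adjusted p = 0.694), which was 0.44 without knockout library 3. Psmb6, which carries the caspase-like site, stood at 45.00, 44.4 and 51.6 CPM in the controls and 51.9, 59.9 and 65.1 CPM in the knockouts. All 3 knockouts lay above the controls, the lowest of them by less than 1 CPM, a pattern seen in 6.26% of all genes. This gave a log2 fold change of 0.33 with a standard error of 0.18 and a 95% interval of -0.08 to 0.73 (edgeR adjusted p = 0.694). Psmb5, which carries the chymotrypsin-like site that bortezomib blocks, stood at 33.1, 27.4 and 32.9 CPM in the controls and 31.6, 39.5 and 36.7 CPM in the knockouts. The groups overlapped (log2 difference 0.21, SE 0.18, 95% interval -0.20 to 0.62), and the difference was 0.11 without control library 2 and 0.12 without knockout library 2.

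The groups overlapped in all 3 immunoproteasome subunits. Psmb8, which replaces Psmb5 and lies in the MHC region, stood at 9.52, 7.65 and 6.94 CPM in the controls and 7.45, 7.49 and 7.70 CPM in the knockouts. The knockouts lay closer to each other than the controls did (log2 difference -0.09, SE 0.19, 95% interval -0.53 to 0.35), and the difference was 0.07 with library totals alone, 0.04 without control library 1 and -0.19 without control library 3. Psmb9, its neighbour in the MHC region, stood at 8.79, 6.45 and 5.29 CPM in the controls and 9.01, 6.43 and 8.09 CPM in the knockouts. Its difference (log2 difference 0.20, SE 0.25, 95% interval -0.36 to 0.76) ranged from 0.04 without control library 3 to 0.41 without control library 1. Psmb10, which replaces Psmb7, stood at 26.8, 18.3 and 20.5 CPM in the controls and 21.3, 28.5 and 19.1 CPM in the knockouts. Control heart 1 and knockout heart 2 were the highest (log2 difference 0.07, SE 0.23, 95% interval -0.45 to 0.59), and the difference was -0.13 without knockout library 2. A change of 2-fold in either direction lay outside each of these intervals, and edgeR's adjusted p was 0.771 to 0.919. Knockout heart 3, the highest library for 9 of the 14 constitutive 20S genes, was the highest for none of the 3.

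Set against the subunit it replaces in the same heart, each immunoproteasome subunit had a lower mean share in the knockouts, with groups that overlapped. The percentages do not depend on the scaling between libraries, and the log2 ratios carry a pseudocount of 0.5 CPM. Psmb8 made 28.8%, 27.9% and 21.1% of the CPM of Psmb5 in the controls and 23.6%, 18.97% and 21.0% in the knockouts. The mean log2 ratio was -1.90 ± 0.24 in the controls and -2.17 ± 0.16 in the knockouts (SD, n = 3 each), a difference of -0.28. Psmb9 made 19.5%, 14.5% and 10.3% of Psmb6 in the controls and 17.4%, 10.7% and 12.4% in the knockouts, a log2 difference of -0.12, which was 0.09 without control library 1 and 0.02 without knockout library 2. Psmb10 made 93.3%, 79.6% and 56.2% of Psmb7 in the controls and 70.3%, 57.1% and 25.8% in the knockouts, a log2 difference of -0.66, which was -0.24 without knockout library 3. The exact two-sided permutation p was 0.2, 0.8 and 0.3 for the 3 pairs, or 0.45, 0.8 and 0.45 with Benjamini-Hochberg adjustment over them, where 0.1 is the smallest that 3 against 3 hearts can give. Per kilobase of exon, Psmb10 stood at 22.8% to 82.5% of Psmb7 over the 6 hearts, Psmb8 at 10.5% to 15.9% of Psmb5 and Psmb9 at 6.05% to 11.5% of Psmb6. The constitutive subunit was thus the more abundant transcript of each pair in all 6 hearts. Summed over the 3 pairs, there were 42.2, 34.2 and 27.0 CPM of immunoproteasome subunits per 100 CPM of constitutive ones in the controls and 33.2, 28.4 and 19.8 in the knockouts. These overlapping groups had a difference of means of -7.33. It was -3.68 when knockout library 3 was left out and -3.47 when control library 1 was, and -11.1 without control library 3.

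**Figure D3:**
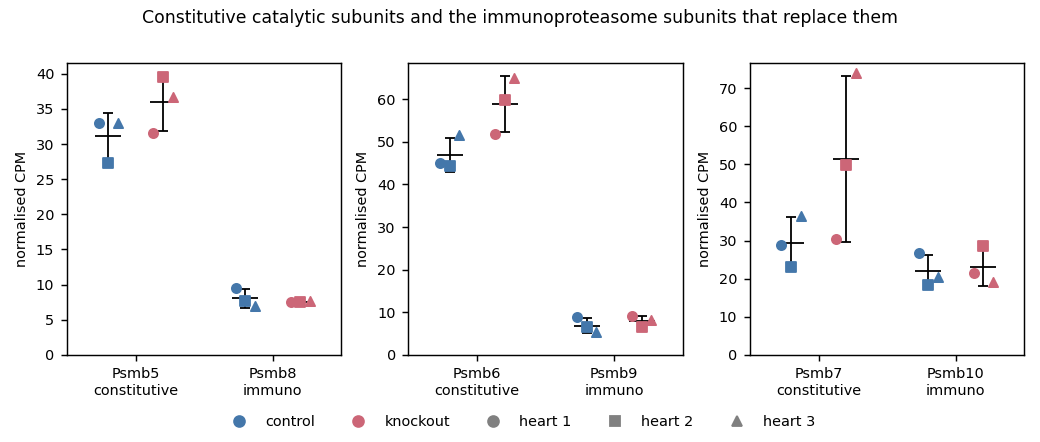
Normalised CPM of the 3 constitutive catalytic subunits and of the immunoproteasome subunit that replaces each, in control (blue) and knockout (red) hearts, with symbols for the heart number and bars for the mean ± SD (n = 3 each). Psmb6 and Psmb7 have knockout means of 59.0 and 51.4 CPM and control means of 47.0 and 29.4 CPM, and the groups overlap for all of these genes but Psmb6.

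Genes that interferon is known to induce together with the immunoproteasome were read out beside it. Of 22 antigen processing and interferon genes, all tested, 10 had a log2 fold change above 0 and 12 below, with a median of -0.03 and 0 past the threshold in edgeR or at unadjusted p below 0.05 there. The sign of this median turned with 1 library: it was 0.03 (12 of 22 above 0) without control library 1, -0.10 (5 of 22) without control library 2 and -0.17 (8 of 22) without knockout library 3. With library totals alone it was 0.11 (14 of 22), where that of all genes was 0.17. Tap1, the peptide transporter whose gene adjoins Psmb9, stood at 7.90, 8.38 and 6.28 CPM in the controls and 5.96, 6.73 and 6.37 CPM in the knockouts (log2 difference -0.24, SE 0.20, 95% interval -0.69 to 0.21). The genes of this list with the smallest p were Bst2 (tetherin), with means of 16.97 CPM in the controls and 11.8 CPM in the knockouts, Gbp7, a guanylate-binding protein, with 21.2 and 15.6 CPM, and Ifit1, which binds foreign RNA, with 4.67 and 3.55 CPM. Their log2 fold changes were -0.53, -0.44 and -0.39, and that of Gbp7 was -0.27 without knockout library 3. Of 23 leukocyte markers, 16 were tested and 14 of these lay above 0 (median 0.39, and 0.25 without knockout library 3). The sum of the 16 tested markers was 155 to 207 CPM in the controls and 216, 213 and 274 CPM in the knockouts. The groups did not overlap, with the knockouts above, a pattern seen in 6.26% of all single genes. The gap between knockout heart 2 and control heart 3 rests on the scaling between libraries (TMM factors 0.90 and 1.04). The macrophage genes Csf1r, C1qa and Tyrobp were among the 16. Cd3e, Cd3g, Cd8a, Nkg7, Cd79a and Ms4a1, which mark T, NK and B cells, were among those below the filter, and Cd79a was at 0 in 2 of the 3 hearts of each group. The part of leukocytes in the immunoproteasome values was not tested.

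Outside the catalytic sites, the structural beta subunits Psmb1, Psmb2, Psmb3 and Psmb4 had log2 fold changes of 0.03 to 0.66, and 5 of the 7 tested alpha subunits lay above 0 (median 0.08). Without knockout library 3 and control library 2, 1 of these 4 beta and 2 of these 7 alpha subunits lay above 0. Leaving out 1 library put the structural beta median at 0.10 (without knockout library 3) to 0.46 and the alpha median at 0.02 (without control library 2) to 0.24 (without knockout library 1). Psmb2 stood at 48.7, 39.2 and 66.4 CPM in the controls and 44.6, 67.3 and 133 CPM in the knockouts. Knockout heart 3 held more than the other 2 knockouts together (log2 difference 0.66, SE 0.38, 95% interval -0.21 to 1.54), and the difference was 0.12 without that library and -0.04 without control library 2 as well. Psma2, of the alpha ring that gates the core, stood at 70.9, 49.6 and 77.1 CPM in the controls and 78.7, 87.0 and 140.4 CPM in the knockouts. All 3 knockouts lay above the controls (log2 difference 0.63, SE 0.28, 95% interval 0.005 to 1.26, edgeR adjusted p = 0.694), and the difference was 0.33 without knockout library 3. Without TMM scaling, knockout heart 2 (78.5 deposited CPM) lay below control heart 3 (80.2) for Psma2. Psma4, also of the alpha ring and named after its values were seen, was the one tested member with all 3 knockouts below the controls, a pattern seen in 5.82% of all genes. It stood at 77.3, 73.4 and 81.9 CPM in the controls and 72.02, 63.9 and 56.4 CPM in the knockouts (log2 difference -0.27, SE 0.18, 95% interval -0.68 to 0.13). Without TMM scaling its groups overlapped, at 78.1, 59.2 and 85.2 deposited CPM in the controls and 79.0, 57.7 and 67.2 in the knockouts. The subunits of a ring are built into the core in equal number, and the log2 fold changes of the alpha transcripts spanned -0.27 (Psma4) to 0.63 (Psma2).

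In the 19S cap, 4 of the 6 ATPases lay above 0 (median 0.11) and 7 of the 11 non-ATPase subunits (median 0.04). Leaving out 1 library moved these medians: the ATPase median was 0.02 when knockout library 3 was left out, 0.03 when control library 2 was and -0.001 when knockout library 2 was. Without knockout library 1 the medians were 0.21 (ATPases) and 0.15 (non-ATPase subunits). Of the non-ATPase subunits 4 of 11 lay above 0 without control library 2 (median -0.07) or knockout library 2 (median -0.02), and their median was 0.01 without knockout library 3. Psmc6, an ATPase of the base, stood at 42.7, 35.7 and 41.8 CPM in the controls and 37.7, 47.0 and 75.5 CPM in the knockouts. Knockout heart 3 was the highest and knockout heart 1 lay among the controls (log2 difference 0.41, SE 0.26, 95% interval -0.19 to 1.01), and the difference was 0.08 without knockout library 3. Psmd14, the deubiquitinase that removes ubiquitin chains as substrates enter, stood at 13.5, 15.1 and 19.4 CPM in the controls and 15.2, 21.7 and 30.7 CPM in the knockouts. Knockout hearts 2 and 3 lay above the controls (log2 difference 0.49, SE 0.28, 95% interval -0.13 to 1.12), and the difference was 0.20 without knockout library 3. Psmd4, the ubiquitin receptor RPN10, was chosen after its values were seen as the member with the lowest fold change and stood at 79.2, 111 and 88.7 CPM in the controls and 83.5, 95.1 and 47.7 CPM in the knockouts. Knockout heart 3 held the lowest Psmd4 of the 6 (log2 difference -0.30, SE 0.28, 95% interval -0.93 to 0.33), and the difference was -0.06 without that library and 0.09 without control library 2 as well. The summed CPM of the 17 cap genes over that of the 14 constitutive core genes was 0.93, 1.08 and 0.95 in the controls and 0.90, 0.93 and 0.73 in the knockouts (0.98 ± 0.08 and 0.85 ± 0.11, SD, n = 3 each). The groups overlapped, and the difference of -0.13 shrank to -0.07 when knockout library 3 was left out and to -0.09 when control library 2 was. Leaving out any other single library made it larger in size.

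**Figure D4:**
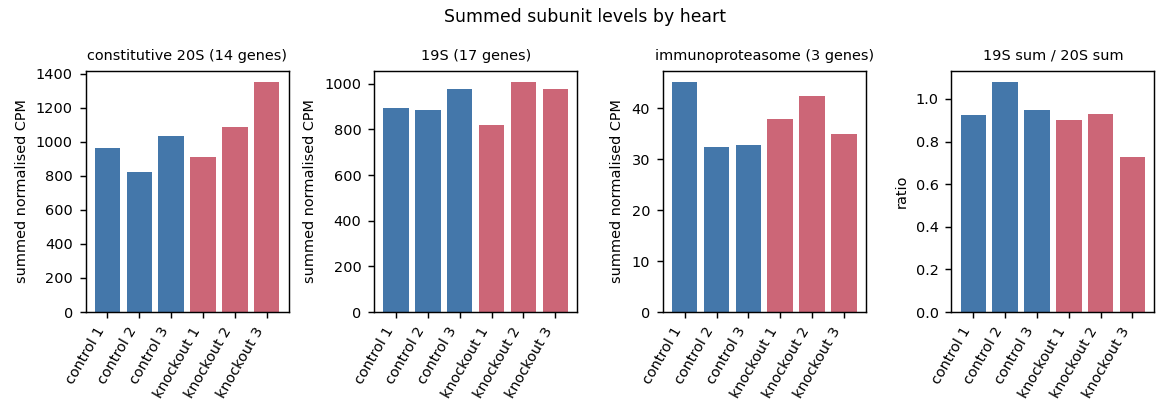
Summed normalised CPM of the constitutive 20S genes, the 19S genes and the 3 immunoproteasome genes, and the ratio of the 19S sum to the 20S sum, in each control (blue) and knockout (red) heart. The 20S sum is highest in knockout heart 3 (1350 CPM, and 821 to 1086 CPM in the others), the immunoproteasome sum is highest in control heart 1 (45.1 CPM), and the ratio is lowest in knockout heart 3 (0.73).

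Among the 5 activators, the groups overlapped for Psme1, Psme2 and Psme2b, and all 3 knockouts lay above the controls for Psme3 and Psme4, a pattern seen in 5 of the 48 members and in 6.26% of all genes. Psme1 and Psme2 form the interferon-inducible PA28 ring. Psme1 had means of 42.8 ± 6.33 CPM in the controls and 43.3 ± 6.57 CPM in the knockouts (SD, n = 3 each), a log2 difference of 0.01 with an interval of -0.44 to 0.46 that was -0.12 without knockout library 3. For Psme2 the means were 29.0 ± 1.85 and 28.5 ± 1.72 CPM, a log2 difference of -0.02 with an interval of -0.40 to 0.35 that was 0.14 with library totals alone. Psme4, which binds the core in the nucleus, stood at 83.0, 90.5 and 112 CPM in the controls and 114, 133 and 156 CPM in the knockouts. Psme3, which acts on nuclear proteins without ubiquitin, stood at 23.5, 19.7 and 26.7 CPM in the controls and 27.8, 30.2 and 36.0 CPM in the knockouts. For Psme4 this gave a log2 fold change of 0.49 with a standard error of 0.21 and a 95% interval of 0.02 to 0.97 (edgeR adjusted p = 0.694), and 0.37 without knockout library 3. For Psme3 the values were 0.43, 0.20 and -0.02 to 0.87, and 0.31 without either knockout library 3 or control library 2. Without TMM scaling, knockout heart 2 (27.2 deposited CPM) lay below control heart 3 (27.7) for Psme3. The difference between these activators was not tested. Reads of Psme2 and its near-identical gene Psme2b (means of 8.60 and 9.36 CPM) can be split between them, so both values are uncertain.

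Psmd9, a chaperone of the ATPase ring, stood at 8.31, 6.72 and 7.28 CPM in the controls and 9.28, 10.3 and 13.9 CPM in the knockouts. Every knockout lay above the controls. This gave a log2 fold change of 0.59 with a standard error of 0.22 and a 95% interval of 0.10 to 1.08, and 0.39 without knockout library 3. Its unadjusted p in edgeR (0.0243, adjusted p = 0.694) was the smallest of the family. The other chaperones of the cap, Psmd5 and Psmd10, had log2 fold changes of 0.36 and 0.44. All 3 were highest in knockout heart 3, Psmd5 and Psmd10 were lowest in knockout heart 1, and without knockout library 3 the fold changes of these were -0.02 and 0.04. Of the 4 chaperones of the 20S core, Psmg3 and Psmg4 lay above and Psmg1 and Psmg2 below 0, and all 4 lay above 0 without knockout library 1. Psmg4 stood at 19.6, 15.8 and 16.5 CPM in the controls and 19.04, 19.7 and 29.7 CPM in the knockouts (log2 difference 0.40, SE 0.22, 95% interval -0.11 to 0.92), and its difference was 0.17 without knockout library 3. Psmf1, the inhibitor PI31, stood at 4.92, 5.43 and 6.81 CPM in the controls and 6.30, 7.03 and 7.21 CPM in the knockouts (log2 difference 0.26, SE 0.21, 95% interval -0.21 to 0.73), and its difference was 0.15 without control library 1 and 0.40 without control library 3.

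**Figure D5:**
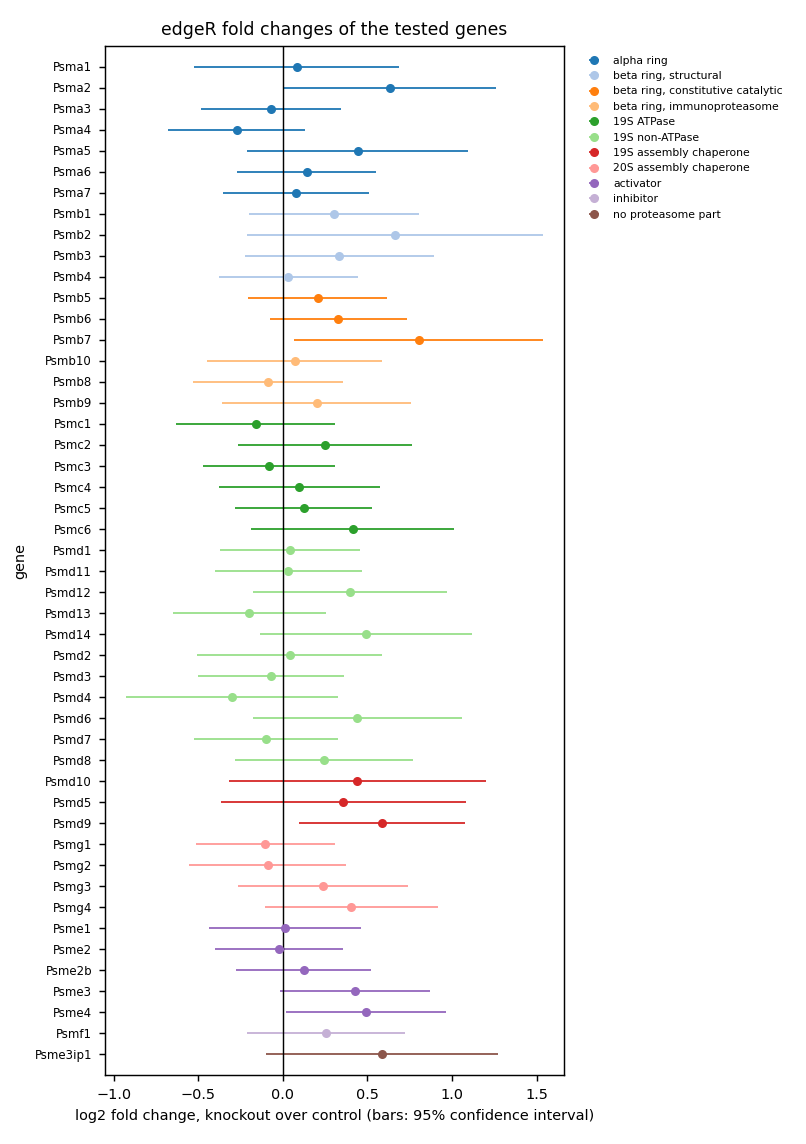
The edgeR log2 fold change (knockout over control) of each of the 48 tested genes with its 95% confidence interval, coloured by role. Psmb7, Psmd9, Psme4 and Psma2 have intervals above 0, and none passed the threshold over all genes.

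Partners of the proteasome that carry other names were read out beside the members. Of 25 such genes, all tested, 22 had a log2 fold change above 0 (88%, median 0.14), beside 51.1% of all genes. They numbered 18 without knockout library 3 (median 0.12) and 19 without control library 2 (median 0.08). With both libraries left out they numbered 15 (60%, median 0.08), beside 52.0% of all genes. None of the 25 passed edgeR's threshold and 1 (4%) was higher at unadjusted p below 0.05, beside 2.69% of all genes. This was Akirin2, which brings proteasomes into the nucleus, at 21.3, 20.4 and 23.6 CPM in the controls and 27.2, 27.8 and 34.7 CPM in the knockouts. The groups did not overlap (log2 difference 0.46, SE 0.18, 95% interval 0.04 to 0.87, edgeR adjusted p = 0.694). All 3 knockouts lay above the controls in 4 of the 25 partners (16%), beside 6.26% of all genes. Nfe2l1, which encodes NRF1, stood at 189, 168 and 216 CPM in the controls and 220.2, 227 and 274 CPM in the knockouts. All 3 knockouts lay above the controls, knockout heart 1 by a small step (log2 difference 0.33, SE 0.20, 95% interval -0.12 to 0.78), and the difference was 0.14 without knockout library 3 and control library 2. That knockout heart 2 lay above control heart 3 for Nfe2l1 rests on the scaling between libraries (TMM factors 0.90 and 1.04). Pomp, the factor that matures the core, stood at 51.5, 39.2 and 47.2 CPM in the controls and 42.6, 70.3 and 80.3 CPM in the knockouts (log2 difference 0.49, SE 0.26, 95% interval -0.09 to 1.07), and its difference was 0.29 without knockout library 3. Rps27a, a ubiquitin fusion gene, had means of 92.9 CPM in the controls and 127 CPM in the knockouts, and Pithd1, a proteasome-binding protein, 3.85 and 5.53 CPM, each with groups that overlapped. Without knockout library 3 their log2 fold changes of 0.46 and 0.53 were 0.22 and 0.25. Adrm1, the ubiquitin receptor RPN13, had means of 10.6 ± 0.45 and 11.4 ± 1.67 CPM (SD, n = 3 each), a log2 difference of 0.10 that was -0.03 without knockout library 2.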

How the data were processed

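Per the labels' protocols, polyadenylated RNA of 6 hearts, 3 per group, was primed with anchored oligo(dT), made into double-stranded cDNA, tagmented and amplified. The submitters' processing notes name, with no roles, edgeR 4.0.16, featureCounts from Subread (2.1.1), STAR (2.7.11), SAMtools (1.22.1) and the build mm39. Annotation, strand setting and handling of multi-mapping reads are not given in the sources used here. Per the file headers, the table gives a count and a CPM for each library. The authors' deposited estimated counts hold fractions of a read in 28 of the 51 members, and the authors' deposited CPM equal, from their values, those counts over the library total with no scaling factor. Of 5 named pseudogene rows of the family, Psma5-ps (42.5 counts over all libraries) and Psmb6-ps2 (16.0) had over 10 counts and could share reads with their parent genes.

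Counts were rounded and tested with edgeR 4.0.16 (quasi-likelihood, R 4.3.3) after TMM scaling, over the 13717 genes with a deposited CPM of at least 1 in at least 3 libraries, with two-sided Benjamini-Hochberg adjusted p-values, a threshold of 0.05 and 95% intervals from the t distribution. The fit was also run on simulated counts. These had less spread between hearts than the data (common biological coefficient of variation 0.25), so that run does not give the power of the test here. Alternatives were DESeq2 1.42.0, limma-trend (limma 3.58.1) on log2(CPM + 0.5), no TMM factors, no filter, a replicate block and leaving out libraries. Ratios used a pseudocount of 0.5 CPM. Lengths (GENCODE M21) and promoters (RefSeq) are on GRCm38 and were matched by gene ID and symbol, and no coordinates were moved between builds. The labels number the hearts without saying how they were sampled, so p-values measure the spread between these samples. Full values are given for the catalytic and immunoproteasome subunits, Psme1 to Psme4, the tested member of each other role with the smallest p and that with the largest absolute fold change, and, of the partners and interferon genes, the 3 with the smallest p with Nfe2l1, Pomp, Adrm1 and Tap1. The members, lists and motifs were chosen with earlier results of these data known. Endothelial markers (8 genes) summed to 319 to 414 CPM in the controls and 263 to 514 CPM in the knockouts.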

Additional observations from a re-analysis of the deposited data

How the results depend on the processing

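Leaving out both knockout library 3 and control library 2, chosen after seeing the data, gave 23 members above 0 and a median of -0.010, below 0 where it had been above, and put Psmb2 at -0.043 and Psme1 at -0.23 (log2). No member was called under any alternative run. Members higher at unadjusted p below 0.05 in edgeR numbered 4, and 2 without TMM factors, 7 with no filter, 8 with the replicate block, 0 without that pair of libraries, and 0 to 12 with 1 library left out (0 without control library 2 or knockout library 3, 12 without knockout library 1). The counts over all 13717 genes moved as well. At that level 369 were higher in the main fit, 491 without TMM factors and 976 with no filter. There were 774 with the replicate block and 280 without that pair of libraries. With 1 library left out there were 88 (control library 2), 265 (knockout library 3) and 1032 (knockout library 1). Members above 0 numbered 28 to 41, and their median was 0.07 to 0.27, with 1 library left out. The log2 ratio of Psmb9 to Psmb6 differed by -0.35 to 0.091 with 1 library left out, with signs that turned without control library 1 (0.091) or knockout library 2 (0.021). Of 324 refits of 27 named genes, 310 kept direction and side of the threshold and 14 turned sign: Adrm1 (-0.031 without knockout library 2, at most 0.19), Psmb10 (-0.053 without control library 2, -0.13 without knockout library 2, at most 0.23), Psmb2 (above, at most 0.96), Psmb8 (0.069 without TMM factors, 0.075 in limma-trend, 0.040 without control library 1, -0.19 at lowest), Psme1 (above, -0.11 without control library 2, -0.12 without knockout library 3, at most 0.090) and Psme2 (0.14 without TMM factors, 0.13 in limma-trend, 0.011 without control library 3, 0.022 without knockout library 1, -0.086 at lowest), with highest and lowest values taken over leaving out 1 library. The cause was not tested. The labels do not say whether the heart numbers pair the samples, and the correlations between hearts did not settle it. Deviations of same-numbered hearts correlated at -0.11, 0.45 and 0.58. Knockout libraries 2 and 3 correlated best with the controls of the same number, and knockout library 1 correlated best with control library 2 (0.57). With the replicate block the members' median was 0.17 and 36 were above 0, as without it, and 5 of all 13717 genes passed edgeR's threshold. The differences of the log2 ratios (-0.28, -0.12 and -0.66) are the same with the block by construction. A mean of paired differences equals the difference of the means, so this is no check of them.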
